A study of Homo sapiens with 4 samples.

Results

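Transcripts of TYMS, RRM1 and RRM2 were examined in LS411N-5FU-R. These human cells descend from the colon carcinoma line LS411N and are resistant to 5-fluorouracil (5-FU), an antimetabolite used against colon cancer. The 3 genes were taken by name, from 14884 genes with a named probe set, because their products make the DNA building blocks on which 5-FU acts. The choice was made with earlier results of these data known. Cells treated with 50 nM verticillin A, a fungal epipolythiodioxopiperazine, for 3 days gave 2 arrays, and control cells kept for the same 3 days with 0 nM gave 2 arrays. Both groups carry the acquired resistance, so the arrays compare treated with untreated resistant cells and not resistant with parental cells. The labels do not say whether the line is 1 clone, whether 5-FU was in the medium, or whether the samples within each group were grown apart. The p-values therefore reflect sample-to-sample spread alone, and that spread may be technical.

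Thymidylate synthase, the product of TYMS, converts dUMP to dTMP with a methyl group taken from a reduced folate, and this is the only route by which cells make dTMP from scratch. A metabolite of 5-FU binds the enzyme together with that folate and blocks it, and a high level of the enzyme is a known form of resistance to 5-FU in colon tumours. Ribonucleotide reductase turns ribonucleotides into deoxyribonucleotides. Its large subunit, which holds the catalytic and the regulatory sites, is the product of RRM1, and its small subunit, which holds the radical that starts the reaction, is the product of RRM2 in dividing cells. Transcription of the 3 genes is known to climb as cells enter S phase, through factors of the E2F family among others.

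The 250 bases before an annotated start of each gene are shown because all 3 transcripts were higher with verticillin A. They come from RefSeq on GRCh38.p14, all on the plus strand and written 5′ to 3′. The window of TYMS is chr18:657403-657652, that of RRM1 is chr11:4094435-4094684 and that of RRM2 is chr2:10122489-10122738. RRM2 has a second annotated start further upstream, at position 10122568, whose window is not printed. Which start the RRM2 transcripts measured here used was not examined. Capitals mark matches, on either strand, to an E2F word (TTTCCCGC, TTTCGCGC, TTTGCCGC or TTTGGCGC), an E2F core (TTCCCGC, which overlaps the first of these words), a CCAAT box (CCAAT), a GC box (GGGCGG) or a TATA word (TATAAA).
TYMS: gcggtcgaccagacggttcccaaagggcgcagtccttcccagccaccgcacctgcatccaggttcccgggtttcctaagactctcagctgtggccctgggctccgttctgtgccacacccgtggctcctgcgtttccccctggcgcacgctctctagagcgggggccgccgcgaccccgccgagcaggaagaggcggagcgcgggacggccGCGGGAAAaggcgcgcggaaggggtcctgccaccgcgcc
RRM1: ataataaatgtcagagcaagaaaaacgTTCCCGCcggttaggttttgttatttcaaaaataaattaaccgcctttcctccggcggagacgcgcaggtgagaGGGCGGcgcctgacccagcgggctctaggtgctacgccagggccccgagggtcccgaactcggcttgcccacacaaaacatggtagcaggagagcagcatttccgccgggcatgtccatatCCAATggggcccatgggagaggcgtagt
RRM2: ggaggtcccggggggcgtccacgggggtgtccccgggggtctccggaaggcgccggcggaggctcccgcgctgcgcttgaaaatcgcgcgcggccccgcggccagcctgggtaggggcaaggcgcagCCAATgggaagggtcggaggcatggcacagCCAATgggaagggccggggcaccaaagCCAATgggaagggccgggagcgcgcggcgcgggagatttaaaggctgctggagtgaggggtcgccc

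The windows shared few of these words. TYMS held 1 E2F word, on the minus strand, 39 to 32 bases before the start, with the E2F core inside it, and none of the other words. E2F words occurred in 2.79% and E2F cores in 5.52% of the 35116 windows in the RefSeq table. RRM1 held 1 E2F core 223 to 217 bases before its start, 1 GC box and 1 CCAAT box, which lay 28 to 24 bases before the start. RRM2 held 3 CCAAT boxes, at 123 to 119, 93 to 89 and 66 to 62 bases before the start, and neither E2F letters nor a GC box. At least 1 CCAAT box was present in 32% of all windows, 3 or more in 2.93%, a GC box in 42.6% and a TATA word, which the 3 windows lacked, in 10.7%. The window of the upstream RRM2 start held 1 CCAAT box and 1 GC box. The G and C content was 71.2% in TYMS, 56.4% in RRM1 and 73.2% in RRM2, against a median of 58% over all windows. The matches describe letters in the reference sequence, and no binding was measured.

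**Figure D1:**
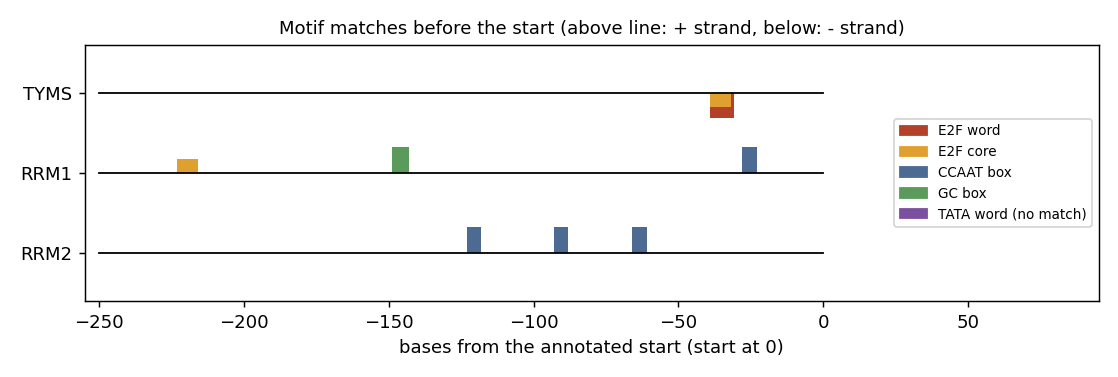
Positions of the motif matches in the 250 bases before the annotated starts of TYMS, RRM1 and RRM2 (the downstream start for RRM2); the x axis is the distance from the start in bases, with matches on the plus strand above each line and on the minus strand below it. The single E2F word lies in TYMS at 39 to 32 bases, and the 3 CCAAT boxes lie in RRM2.

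Values are the deposited log2 expression values, 1 per probe set and array, and each of the 3 genes had 1 probe set. Over the 4 arrays the values of all probe sets ran from 2.596 to 14.47 with array medians of 4.591 to 4.617. The signals of the 3 genes lay above those of at least 90.3% of probe sets on every array, which describes signal and not the number of transcripts. EPCAM, an epithelial adhesion protein, reached 10.94 and 10.94 in verticillin A cells, against 11.09 and 11.13 in control cells, and the simple epithelial keratin KRT18 10.44 and 10.44 in verticillin A cells, against 10.29 and 10.45 in control cells. The colon transcription factor CDX2 was dim (5.53 and 5.23 with verticillin A, 5.19 and 5.19 in control cells), as were CEACAM5 and KRT20. Of 12 measured colon epithelial markers 1 rose and 1 fell, against 3.55% and 5.10% of all genes. The keratin KRT19 had 8.69 and 8.66 with verticillin A, against 8.13 and 8.34 in control cells (log2 change 0.44 ± 0.09, limma adjusted p = 0.0493). VIL1, which encodes the brush border protein villin, had 5.57 and 5.51 with verticillin A, against 6.10 and 6.22 in control cells (log2 change -0.62 ± 0.08, limma adjusted p = 0.0167), and the part of either marker in the changes of the 3 genes was not tested. None of the 10 measured markers of fibroblasts, leukocytes and endothelium averaged above 4.55.

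All 3 transcripts rose with verticillin A. TYMS was 1.40-fold, RRM2 1.42-fold and RRM1 1.24-fold higher in verticillin A cells than in control cells (n = 2 arrays per group). In the limma fit over all genes, 3.55% of the 14884 genes were called higher and 5.10% lower at an adjusted p under 0.05, and all 3 genes were among those called higher. Those were 528 genes higher and 759 lower, or 750 higher and 668 lower when each array was centred on its median. The 3 genes and the gene lists were chosen with earlier results known, so these shares are not an independent test of them. Bulk arrays cannot tell a larger share of S phase cells from more RNA per cell, and that share was not measured.

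TYMS had values of 11.04 and 11.03 in verticillin A cells, against 10.52 and 10.59 in control cells. The treated arrays were nearly equal and lay 0.45 above the higher control array. The mean was 11.04 ± 0.003 with verticillin A and 10.55 ± 0.05 in control cells (SD, n = 2 per group). The log2 change of 0.48 ± 0.07 (SE; 95% interval 0.31 to 0.65) had a limma adjusted p of 0.0215.

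RRM2, the subunit whose supply is known to limit the enzyme outside S phase, had values of 9.59 and 9.64 with verticillin A, against 9.07 and 9.15 in control cells. The groups did not overlap, with a gap of 0.45 between the nearest arrays. The log2 change was 0.51 ± 0.07 (SE; 95% interval 0.33 to 0.68, limma adjusted p = 0.0208).

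RRM1, the long-lived large subunit, had values of 10.09 and 10.12 with verticillin A, against 9.80 and 9.79 in control cells. The 4 values again formed separate pairs, with a gap of 0.29. Its log2 change of 0.31 ± 0.07 (SE; 95% interval 0.15 to 0.48) had a limma adjusted p of 0.0497, just inside the threshold. Both treated arrays lay above both control arrays in 25.7% of all genes and below them in 29.1%, so that arrangement alone is common in these data.

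**Figure D2:**
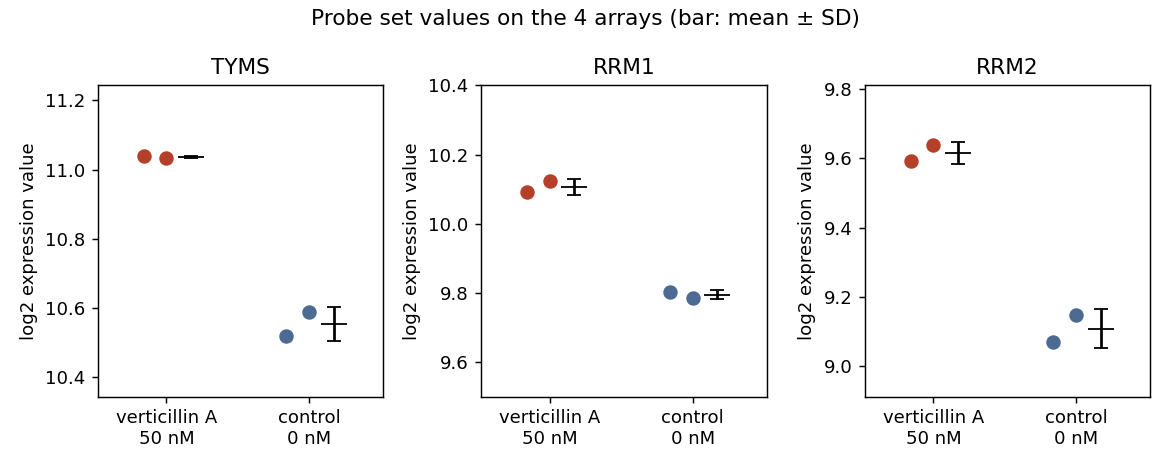
Log2 expression values of TYMS, RRM1 and RRM2 on each array (points), with verticillin A (50 nM) left of control (0 nM) and the mean ± SD beside each pair (n = 2). In each panel both treated points lie above both control points, by 0.45 for TYMS and RRM2 and by 0.29 for RRM1; the y axes span equal log2 ranges and do not start at 0.

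The calls of all 3 genes depended on what was tested. With all 53617 probe sets tested in place of the named genes, the log2 changes were the same and the limma adjusted p became 0.0994 for TYMS, 0.0969 for RRM2 and 0.165 for RRM1. With 1 array left out the log2 changes stayed between 0.45 and 0.52 for TYMS, 0.47 and 0.55 for RRM2 and 0.30 and 0.33 for RRM1. Such a fit leaves 1 array in 1 group and 1 residual degree of freedom. It therefore cannot show whether a call depends on a given array.

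**Figure D3:**
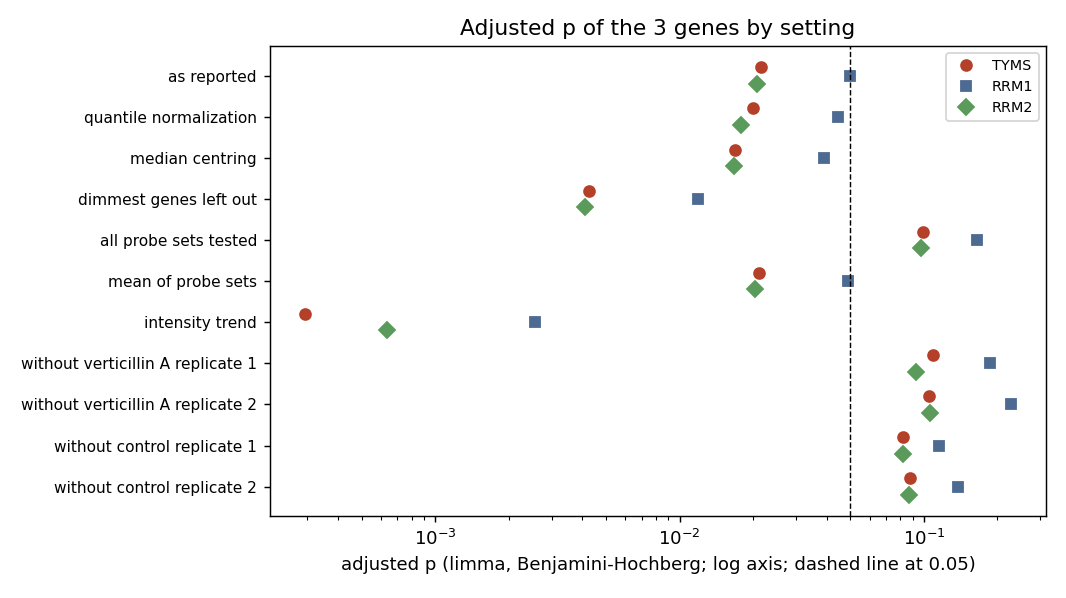
Limma adjusted p (log axis) of TYMS, RRM1 and RRM2 as reported and under other settings, with a dashed line at 0.05. All 3 genes lie right of the line when all probe sets were tested or any array was left out, and left of it in the other settings drawn, RRM1 only just (0.0497 as reported, 0.0491 with probe set means). The fit with a replicate block is not drawn.

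The changes were then compared within arrays. The log2 difference RRM2 minus RRM1 was -0.50 and -0.49 with verticillin A, against -0.74 and -0.64 in control cells. It was thus higher by 0.19 in treated cells, without overlap. TYMS minus RRM1 was 0.95 and 0.91 with verticillin A, against 0.71 and 0.80 in control cells, a difference of 0.17 without overlap. TYMS minus RRM2 was 1.45 and 1.40 with verticillin A, against 1.45 and 1.44 in control cells, and these groups overlapped. An exact two-sided permutation test gave p = 0.333 for each of the first 2 differences, the smallest p that 2 against 2 arrays allow, and p = 0.667 for the last, before any adjustment for 3 comparisons. Whether RRM1 rose less than the other two was therefore not settled by a test.

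By profile, the likeness of 2 genes was measured as the root mean square difference of their log2 values over the 4 arrays, after subtraction of each gene's mean. TYMS and RRM2 differed by 0.0214, and 13 other genes were closer to TYMS than RRM2 was. RRM1 differed from TYMS by 0.0917, at rank 505 of the genes nearest to TYMS. From RRM2 it differed by 0.103, at rank 561 of those nearest to RRM2. The 5 genes nearest to TYMS were HSD17B2, whose values lay below the array medians, AFG2A, the mitotic kinase PBK, MCM5 of the replicative helicase and the separase gene ESPL1, at 0.00774 to 0.0166. Those nearest to RRM2 were the thioredoxin reductase gene TXNRD1, MID1, the mitochondrial RNA polymerase gene POLRMT, the purine nucleoside phosphorylase gene PNP and the co-chaperone gene STIP1, at 0.00934 to 0.0135. Nearest to RRM1 were COIL, which encodes coilin of Cajal bodies, TRIP10, HSBP1, the kinase gene NEK7 and the exonuclease gene EXO1, at 0.00489 to 0.011. With 4 arrays in 2 groups such likeness reflects mainly the size of the change.

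Around ribonucleotide reductase, the electron supply and a regulator of RRM2 protein rose as well. Of 9 measured genes of this list 5 rose, 0 fell and 4 did not pass. The 5 include RRM1 and RRM2, and over all genes 3.55% rose and 5.10% fell. The list's median log2 change of 0.31 is the value of RRM1 itself, against a median of -0.01 over all genes. TXN, which encodes the thioredoxin that hands electrons to the reductase, had values of 11.99 and 11.99 with verticillin A, against 11.43 and 11.39 in control cells. Its log2 change was 0.58 ± 0.07 (SE, limma adjusted p = 0.0139). TXNRD1, which recharges thioredoxin, had 9.55 and 9.58 with verticillin A, against 9.01 and 9.08 in control cells (change 0.52 ± 0.07, adjusted p = 0.0192). Both genes are also known targets of NRF2, the factor of the oxidative stress response.

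CCNF, which encodes cyclin F, the ubiquitin ligase subunit that marks RRM2 protein for breakdown in G2, had 8.37 and 8.39 with verticillin A, against 7.84 and 7.89 in control cells. Its log2 change was 0.51 ± 0.07 (limma adjusted p = 0.0182), near that of RRM2 itself. RRM2B, the p53-inducible small subunit used by resting and damaged cells, had 9.82 and 9.65 with verticillin A, against 9.53 and 9.60 in control cells, and did not pass (0.17 ± 0.09, adjusted p = 0.286). SAMHD1, which breaks dNTPs down, changed by 0.21 ± 0.08 (adjusted p = 0.158). AHCYL1, whose product IRBIT inhibits the reductase, changed by -0.23 ± 0.07 (adjusted p = 0.0995), and GLRX, the glutaredoxin that can stand in for thioredoxin, by -0.01 ± 0.09.

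The thymidylate cycle held calls in both directions. Of its 4 measured genes, TYMS rose, SHMT2 fell and 2 did not pass, against 3.55% of all genes called higher and 5.10% lower. SHMT2, the mitochondrial serine hydroxymethyltransferase, had 7.24 and 7.18 with verticillin A, against 7.56 and 7.68 in control cells (change -0.40 ± 0.08, limma adjusted p = 0.0387). SHMT1, the cytosolic and nuclear enzyme that reloads folate for TYMS, had 7.89 and 7.79 with verticillin A, against 7.59 and 7.56 in control cells. That change of 0.27 ± 0.07 had an adjusted p of 0.085. MTHFD1 was not analysed here.

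In the wider folate and one-carbon list 1 of 12 measured genes fell, 0 rose and the median log2 change was -0.05. Over all genes 5.10% fell and 3.55% rose, so 1 of 12 is near the background. The gene that fell was MTHFD1L, which releases formate from mitochondria, with 9.10 and 9.14 under verticillin A, against 9.53 and 9.68 in control cells (change -0.48 ± 0.08, limma adjusted p = 0.0295). SHMT2 and MTHFD1L, which act in the same mitochondrial route, are known targets of the stress factor ATF4.

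No other measured enzyme of deoxynucleotide supply passed. Of 8 measured genes of this list 0 were called in limma, near the background of 3.55% of all genes called higher and 5.10% lower. Unadjusted p was under 0.05 for 2 of the 8, and the median log2 change was 0.07. An unadjusted p under 0.05 was found for 26.7% of all genes, so 2 of 8 is near the background. The nearest to the threshold was DTYMK, the thymidylate kinase that takes the product of TYMS one step on, with 8.99 and 9.11 under verticillin A, against 8.73 and 8.65 in control cells. Its log2 change was 0.36 ± 0.08 (limma adjusted p = 0.0525). DCK, the deoxycytidine kinase of the salvage route, changed by 0.19 ± 0.07 (adjusted p = 0.149) and DCTD, which makes dUMP from dCMP, by -0.13 ± 0.07 (adjusted p = 0.305). DUT, which removes dUTP and 5-FdUTP, changed by 0.08 ± 0.07 at a dim 5.05 and 5.14 with verticillin A, against 5.03 and 5.00 in control cells. DGUOK, GUK1, NME4 and NME6 changed by -0.03 to 0.09. The salvage kinase gene TK1 was not analysed here.

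Of 13 listed genes of 5-FU uptake and activation 8 were measured, all of them enzymes, and the uptake transporters SLC29A1, SLC29A2 and SLC22A7, with TYMP and TK1, were not analysed here. Of the 8, 2 passed, and these were the reductase subunits, which the list includes because they reduce FUDP. Over all genes 3.55% were called higher and 5.10% lower. UMPS, which attaches ribose phosphate to 5-FU, changed by 0.24 ± 0.07 (limma adjusted p = 0.107) and UCK1, a uridine kinase, by 0.26 ± 0.07 (adjusted p = 0.0699). UCK2, UPP1, UPP2 and PPAT changed by -0.17 to 0.12. DPYD, the enzyme that limits 5-FU breakdown, had 5.20 and 5.17 with verticillin A, against 5.19 and 5.40 in control cells (adjusted p = 0.499). DPYS, the next enzyme of that route, had 3.41 and 3.61 with verticillin A, against 3.81 and 3.63 in control cells, below the array medians, and neither had an unadjusted p under 0.05. UPB1 and the ABC efflux transporters of that list were not analysed here.

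Repair of uracil in DNA, which acts on bases misincorporated from dUTP and 5-FdUTP, held 0 calls in limma among 9 measured genes. Over all genes 3.55% were called higher and 5.10% lower, so 0 of 9 is near the background. Unadjusted p was under 0.05 for 4 of the 9 (26.7% of all genes), and the median log2 change was 0.05. UNG, the main uracil glycosylase, changed by 0.21 ± 0.07 (adjusted p = 0.126) and the mismatch repair gene MSH6 by 0.26 ± 0.07 (adjusted p = 0.0872). The glycosylase MBD4 changed by -0.20 ± 0.07 and the mismatch repair gene PMS2 by -0.35 ± 0.09 (adjusted p = 0.148 and 0.0718). APEX1, SMUG1, TDG and XRCC1 changed by 0.01 to 0.14.

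Nucleotide synthesis upstream of the reductase gave 1 call. Of 4 pyrimidine synthesis genes 0 were called in limma, against 3.55% of all genes called higher and 5.10% lower. Unadjusted p was under 0.05 for 2 of the 4, against 26.7% of all genes (median log2 change 0.06). CTPS1 changed by 0.11 ± 0.07, DHODH by 0.02 ± 0.08 and CTPS2 by -0.19 ± 0.07. Of 10 purine synthesis genes 1 fell and 0 rose (median 0.07), against 5.10% and 3.55% of all genes. The one that fell was ADSS1, an adenylosuccinate synthase known from muscle, with 5.45 and 5.53 under verticillin A, against 5.91 and 5.91 in control cells (limma adjusted p = 0.029).

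**Figure D4:**
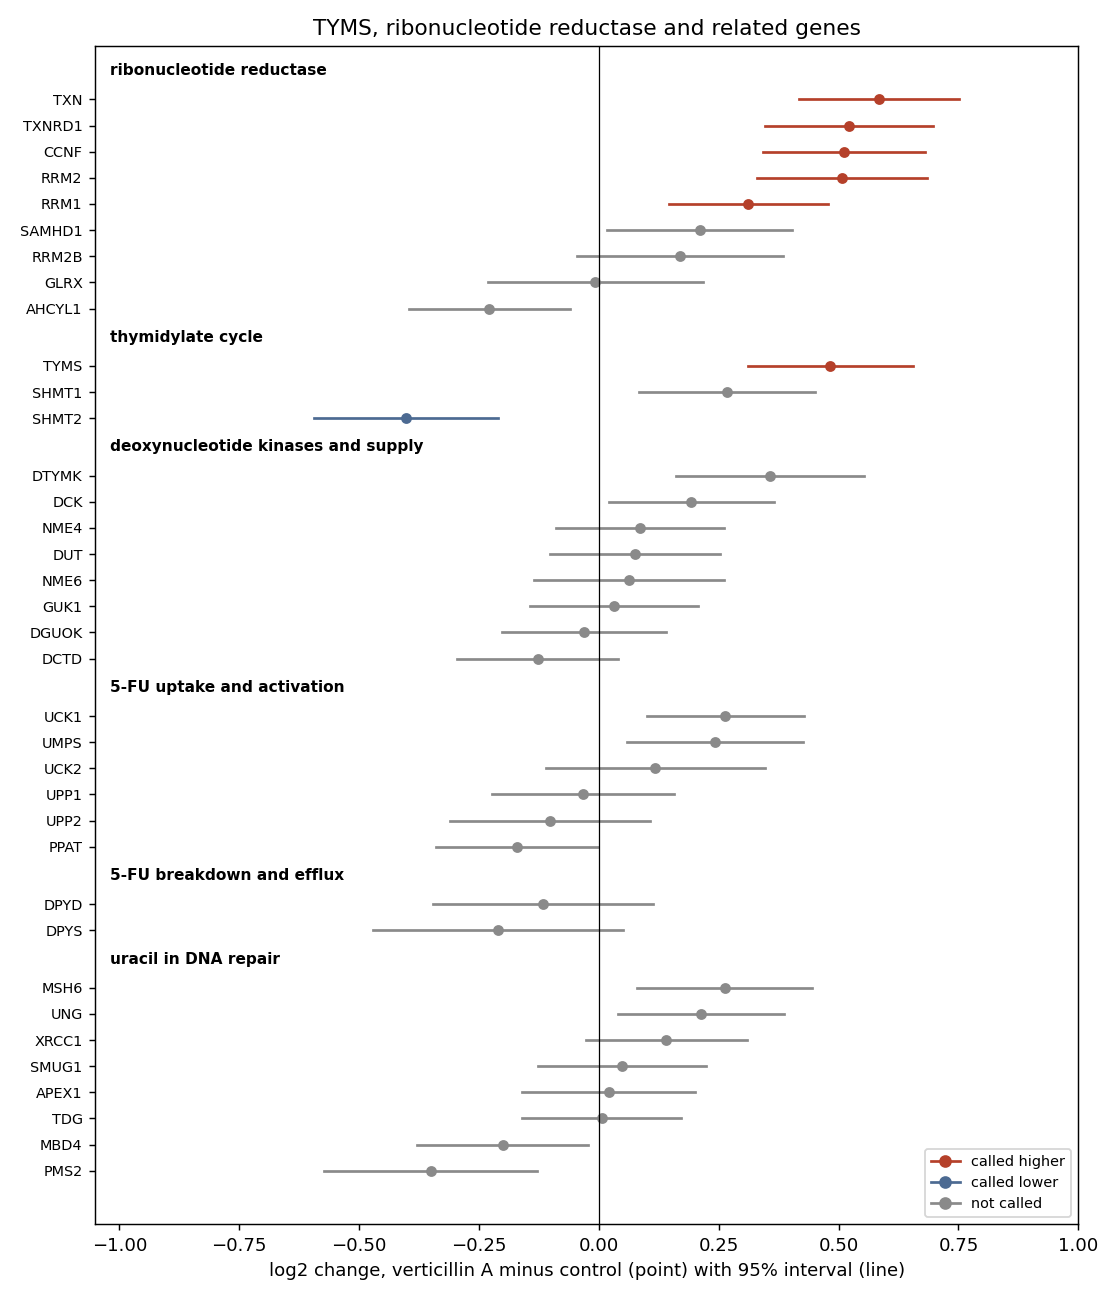
Log2 change with verticillin A (points, mean of 2 treated minus mean of 2 control arrays) and its 95% interval from limma (lines), by gene and list; a gene of several lists is drawn once, in the first, and 1 gene of the thymidylate cycle is not drawn. TXN, TXNRD1, CCNF, RRM2, RRM1 and TYMS lie right of 0 and are called higher, SHMT2 is called lower, and the remaining genes are not called.

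The rises of TYMS, RRM1 and RRM2 were set beside those of other S phase genes. Of 49 listed genes of G1/S and DNA replication, a list that holds none of the 3, 27 were measured. Of these 14 rose and 0 fell, against 3.55% and 5.10% of all genes, with a median log2 change of 0.37. Changes above that of TYMS were seen in 11 of these genes, above that of RRM2 in 11 and above that of RRM1 in 16. PCNA, the sliding clamp that DNA polymerases ride on, had 10.82 and 10.70 with verticillin A, against 9.90 and 9.89 in control cells, the largest change of the list (0.87 ± 0.07). Cyclin E1 (CCNE1, 0.78 ± 0.07), CLSPN, the claspin of the replication checkpoint (0.69 ± 0.07), and GINS2, of the replicative helicase (0.64 ± 0.07), followed. MCM5 changed by 0.47 ± 0.07, and its place among the 5 genes most like TYMS in profile reflects mainly that size. Among all 14884 genes, 2.10% changed upward by more than TYMS, 1.83% by more than RRM2 and 6.34% by more than RRM1.

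Of 35 listed regulators of the E2F, RB and DREAM network, which times the transcription of S phase genes, 25 were measured. Of these 6 rose and 2 fell, against 3.55% and 5.10% of all genes (median log2 change 0.18). E2F4, E2F5, E2F6, CDKN1A, CDKN1B, CDKN2B, CDKN2C, NFYA, NFYB and NFYC were not analysed here. E2F1, an activator of S phase genes, had 8.51 and 8.47 with verticillin A, against 7.75 and 7.83 in control cells (change 0.70 ± 0.07, limma adjusted p = 0.0113). MYBL2, an activator of late S and G2 genes, rose by 0.56 ± 0.08, and LIN52 and LIN37, subunits of the DREAM complex, rose by 0.49 ± 0.08 and 0.43 ± 0.07. The dimerisation partners of E2F went opposite ways, TFDP1 higher by 0.41 ± 0.07 and TFDP2 at -0.41 ± 0.07 (adjusted p = 0.0267 and 0.0282). The repressor gene E2F7 rose by 0.39 ± 0.07. CDKN2A, a CDK inhibitor gene, fell by 0.48 on the log2 scale, to 5.77 and 5.70 with verticillin A, against 6.13 and 6.29 in control cells.

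Other regulators did not pass. RB1 changed by -0.17 ± 0.07, RBL1 by 0.26 ± 0.07, FOXM1 by 0.29 ± 0.07 and MYC by -0.29 ± 0.07 (limma adjusted p = 0.175, 0.0792, 0.0619 and 0.0591). TFCP2, whose product LSF is known to bind the TYMS promoter, changed by -0.20 ± 0.07 (adjusted p = 0.123). SP1, a binder of GC boxes, changed by -0.09 ± 0.07. Of 16 ATR checkpoint genes, whose products act when dNTPs run short, only CLSPN and CDC25A rose and 0 fell (median 0.02). CLSPN and CDC25A are also counted in the G1/S and DNA replication list. Over all genes 3.55% rose and 5.10% fell. CHEK1, the checkpoint kinase, changed by -0.07 ± 0.07 (adjusted p = 0.591) and ATR by 0.03 ± 0.07; both were named after their values were seen.

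**Figure D5:**
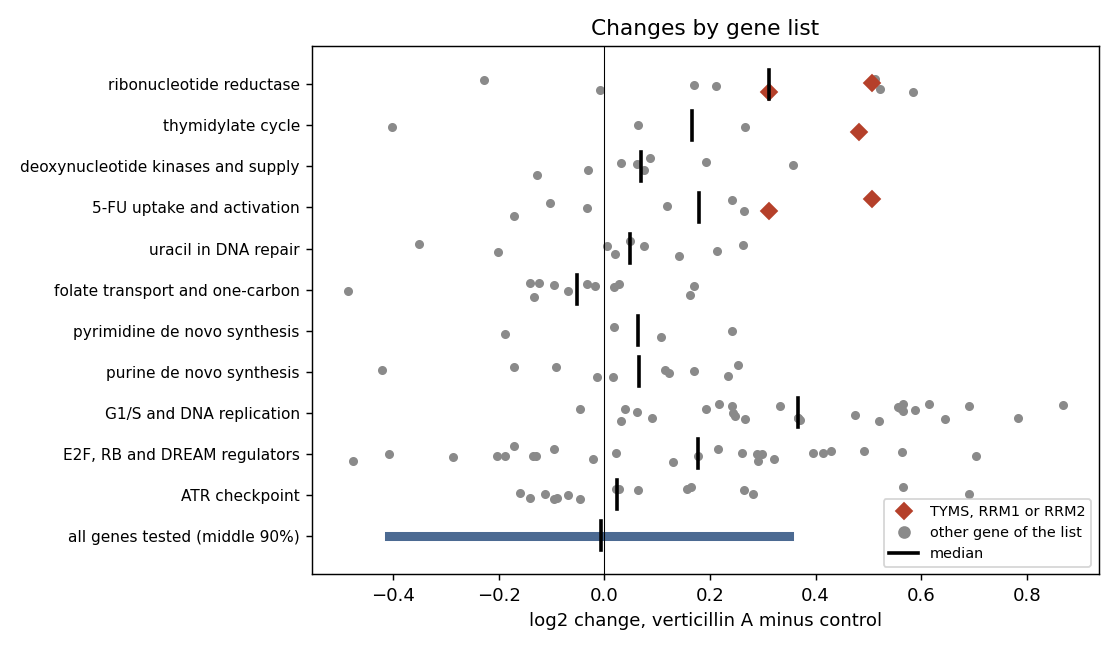
Log2 change with verticillin A of each measured gene by list (points; diamonds mark TYMS, RRM1 and RRM2), with the list's median as a black bar and, in the last row, the middle 90% of all genes as a blue bar. The median is 0.37 for G1/S and DNA replication, against -0.01 for all genes. For ribonucleotide reductase it is 0.31, which is the value of RRM1 itself.

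The measured neighbouring genes gave no calls, near the background of 3.55% of all genes called higher and 5.10% lower. TYMS lies at 657653 to 673578 on chromosome 18 (GRCh38.p14) and overlaps TYMSOS and ENOSF1 on the opposite strand, neither of which was analysed here. The strand and place of the probes within TYMS were not examined. The genes on either side, CLUL1 and the kinase gene YES1, changed by -0.06 ± 0.11 and -0.24 ± 0.07 (limma adjusted p = 0.808 and 0.104). CLUL1 was dim, at 4.63 and 4.90 with verticillin A, against 4.81 and 4.83 in control cells. RRM1 lies at 4094685 to 4138932 on chromosome 11, next to STIM1, the calcium sensor gene, which changed by 0.10 ± 0.07 (adjusted p = 0.452). On its other side LINC02749 changed by -0.02 ± 0.09, at values below the array medians. RRM2, annotated at 10122568 to 10211010 on chromosome 2, has the microRNA gene MIR4261 inside its span and CYS1 before it, which changed by 0.08 ± 0.08 and 0.08 ± 0.12 at values under 4, below the array medians.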

How the data were processed

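Total RNA of 4 samples was hybridised to Affymetrix whole-transcript arrays. The authors deposited log2 values, 1 per probe set and array, made with GCRMA per the submitters' processing notes; version, build and filters were not given in the sources used here. The log2 scale was read from the range of the values. Platform annotation named 1 gene for 16098 of 53617 probe sets (0 named several, and 37519 are unnamed here), all matched to RefSeq (GRCh38.p14). The probe set with the highest mean stood for a gene, leaving 14884 genes.

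Groups came from the sample titles. limma 3.58.1 (R 4.3.3; lmFit, eBayes) was fitted to all genes and 4 arrays without a filter, and "adjusted p" is its p after Benjamini-Hochberg adjustment over all genes, with a threshold of 0.05 and 2 residual and 3.43 prior degrees of freedom. The number of arrays limits precision, and no detection calls were used. The steps were tested on simulated data for sign, bias and the recovery of large changes. No level of recovery was required for changes as small as those of the 3 genes.

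The 3 genes and the gene lists were chosen with earlier results of these data known. Named are the 3 genes, all measured genes of the nucleotide, 5-FU, uracil repair and E2F lists, up to 8 called genes of other lists (or the 2 largest changes), neighbours and the 5 nearest profiles; the text gives part of them. Alternatives were another normalization, centring, a block, a filter, other features, probe set means, an intensity trend and leaving out arrays. Motifs were searched in the RefSeq promoter table. Values of 1 further gene of the thymidylate cycle list are not reported here.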

Additional observations from a re-analysis of the deposited data

How the results depend on the processing

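The log2 changes of TYMS, RRM1 and RRM2 were positive under every alternative run, and all 3 calls held after quantile normalization, after median centring, with the dimmest 50% of genes left out, with probe set means and with an intensity trend. Testing all probe sets ended all 3 calls at log2 changes of 0.48 (TYMS), 0.31 (RRM1) and 0.51 (RRM2), with more features to adjust for and another variance prior. Leaving out 1 array, which also leaves 1 residual degree of freedom, ended them too, with ranges of 0.447 to 0.518 for TYMS, 0.296 to 0.328 for RRM1 and 0.467 to 0.546 for RRM2. The replicate block left the changes at 0.48 and 0.31 and ended the calls of TYMS and RRM1 (limma adjusted p = 0.05001 and 0.0903) but not of RRM2 (0.0463). Deviations of arrays with the same number correlated at 0.0124, and the labels give no shared batch. Whether arrays with the same number shared a culture or a run is not known.

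Counts of called genes, 528 higher and 759 lower as reported, were 228 and 364 with the replicate block, 1070 and 1329 without the dimmest genes, 20 and 29 over all probe sets, 1067 and 1361 with the intensity trend, and 0 to 52 and 0 to 105 with 1 array left out. Without control replicate 1 or 2 limma called 0 genes, with 3715 and 3528 at an unadjusted p under 0.05. Of 36 other named genes that were called, 0 kept the call over all probe sets or without either control array, 2 (PCNA and CCNE1) without either verticillin A array, and 20 with the block, which ended among others the calls of SHMT2, MTHFD1L, E2F7, TFDP1, TFDP2 and CDKN2A. Averaging the probe sets ended the call of PNP. No named gene changed direction with a call. The within-array differences moved by less than 1 SD with quantile normalization and with probe set means. Leaving out 1 of 2 arrays shifts a mean by a fixed share of its SD and so is no test of them; TYMS minus RRM2 was then 0.0002 without verticillin A replicate 2, against -0.02 as reported.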
